A study of Arabidopsis thaliana with 2 samples.

Results

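The 8 genes described here form a set of iron uptake and iron status genes of Arabidopsis thaliana. They are IRT1, NAS1, FRO3, OPT3, BHLH039, BTS, ORG1 and FER1, and each was read by 1 of the 22746 plant probe sets of the Affymetrix ATH1 array, chosen by probe set identifier. The cadmium sample was Col-0 seedlings 7 days old exposed to 200 µM cadmium (Cd), a toxic metal with no known nutritional role in plants. The control sample was Col-0 seedlings of the same age with no treatment. Both were whole seedlings grown on diluted MS medium, a nutrient medium that supplies iron, at 28 °C with 16 hours of light and 8 hours of dark per day. The labels differ on the exposure, given as 4 hours for the treated sample and as 6 hours in the treatment protocol. Each group was a single sample on a single array, so no difference below has a replicate check and none has a p-value. In whole seedlings, fewer cells of a type and less RNA per cell cannot be told apart.

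Arabidopsis acquires iron by reduction. Root epidermal cells acidify the soil, reduce ferric iron at the plasma membrane and import ferrous iron through IRT1, a transporter of the ZIP family that also carries zinc, manganese, cobalt and cadmium. When iron is short, FIT, a bHLH transcription factor, acts with the group Ib bHLH factors, BHLH039 among them, to switch on the uptake genes. In a second branch, BTS, an iron-binding ubiquitin ligase, limits the response, while ferritin genes such as FER1 are kept low until iron is plentiful.

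Among the 8 genes, NAS1 and IRT1 were lower on the cadmium array and BHLH039 was higher, each by 1.5-fold to 2-fold. ORG1 and BTS were higher and FER1 was lower by smaller amounts, and FRO3 and OPT3 differed by less than 0.1 on the log2 scale. No gene reached a 2-fold difference (0 of 8), against a background of 1.05% of all plant probe sets, of which 0.422% were higher and 0.624% lower with cadmium. At least 1.5-fold differences (0.58 on the log2 scale) were measured for 3 of 8 genes, or 37.5%, against 3.95% of all plant probe sets. By direction, 1 of 8 was at least 1.5-fold higher, against 1.46% of plant probe sets, and 2 of 8 were at least 1.5-fold lower, against 2.49%. The median absolute difference was 0.44 over the 8 genes and 0.13 over all plant probe sets. The 8 genes were chosen with earlier results of these data known, so these comparisons with all plant probe sets are not a test of the set. Differences as far as that of IRT1 were also more common near its level (5.04%) than among all plant probe sets (2.54%). The median signed difference was 0.03 over the 8 genes, with 5 higher and 3 lower, and 0.02 over all plant probe sets, so the 8 genes did not share a direction.

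**Figure D1:**
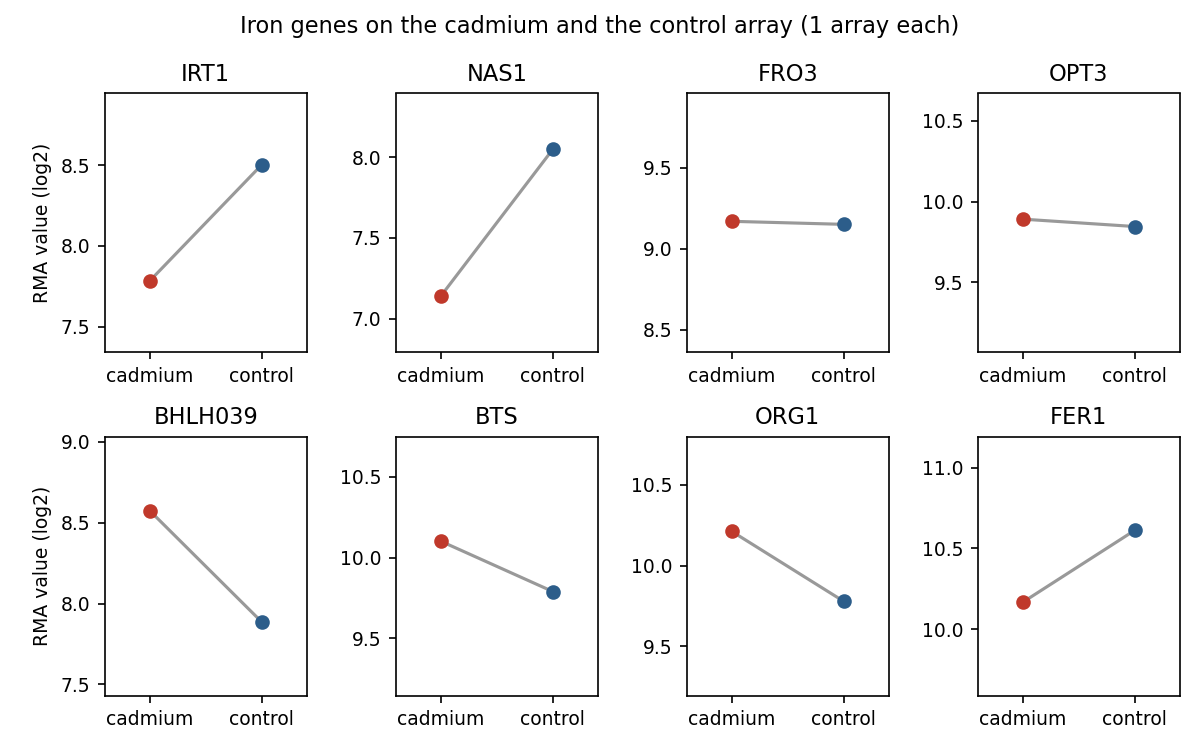
RMA values (log2, vertical axes, each spanning the same range of units) of the 8 iron genes on the cadmium array (red, left) and the control array (blue, right), 1 array each. The line slopes up toward the control for IRT1, NAS1 and FER1, down for BHLH039, ORG1 and BTS, and is nearly flat for FRO3 and OPT3.

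All 8 genes gave moderate to high signal. Their levels lay between percentiles 64.1 and 96.1 of the plant probe sets on the 2 arrays, which ran from 3.28 to 13.64 on the cadmium array (median 6.22) and from 3.27 to 13.60 on the control array (median 6.19). The deposited table holds no detection calls. The tissue label was checked against markers for which the annotation gave a probe set, 3 of 11 for root and 2 of 10 for shoot. PYK10, a root beta-glucosidase, stood at percentile 99.6 on the cadmium array and 99.3 on the control array. The other root markers were far lower. EXPA7 stood at 47.7 on the cadmium array and 57.9 on the control array, and EXPA18 at 40.2 and 51.2. Of the shoot markers, RCA, the Rubisco activase of leaves, stood at 99.8 on both arrays, and PRK at 99.1 and 98.8. Shoot markers were thus high, while the root markers differed widely in level, and the share of root tissue was not tested. The array's own reference transcripts differed little, by 0.06 ± 0.13 for actin (SD over 6 probe sets), 0.14 ± 0.06 for GAPDH (5 probe sets) and 0.09 ± 0.02 for ubiquitin (5 probe sets). The hybridization controls are foreign transcripts spiked in before hybridization, and their mean difference was -0.22. By transcript it was -0.27 ± 0.15 for bioB (6 probe sets) and -0.28 ± 0.13 for bioC (4 probe sets). For bioD it was -0.25 ± 0.28 and for cre -0.07 ± 0.09 (4 probe sets each), so these controls did not shift alike. Scaling to these controls adds 0.22 to every difference, and scaling to actin, GAPDH and ubiquitin lowers every difference by 0.10.

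IRT1 (AT4G19690, probe set 254550_at) is the main iron importer of the root epidermis and a known entry route for cadmium. Its value was 7.78 on the cadmium array and 8.50 on the control array. The difference was -0.72 on the log2 scale, so the signal was 1.65-fold lower with cadmium. Its level stood at percentile 73.6 on the cadmium array and 81.6 on the control array. Of all plant probe sets, 2.54% differed at least as far in either direction, and of the 2876 probe sets within 0.5 log2 units of its mean level, 5.04% did. The difference ran from -0.82 when the arrays were scaled to actin, GAPDH and ubiquitin to -0.50 when they were scaled to the hybridization controls. With the hybridization controls it thus did not reach 1.5-fold.

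NAS1 (AT5G04950, probe set 250832_at) encodes nicotianamine synthase 1, which makes nicotianamine, a chelator that keeps iron, zinc and copper soluble and mobile in the plant. As deposited it had the largest difference of the 8 genes, while scaled to the hybridization controls BHLH039 had, at 0.91. Its value was 7.14 on the cadmium array and 8.05 on the control array, a difference of -0.91 on the log2 scale or 1.88-fold lower. Of all plant probe sets, 1.38% differed at least as far in either direction. Within 0.5 log2 units of its mean level, 2.17% of 3265 probe sets differed as far in either direction. Scaled to actin, GAPDH and ubiquitin, the difference was -1.01 and passed the 2-fold limit, and scaled to the hybridization controls it was -0.69. The nicotianamine synthases form a family of similar genes, and probe sequences were not used here, so signal from NAS2, NAS3 or NAS4 on this probe set was not tested.

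The remaining genes of iron movement in the plant showed little difference. FRO3 (AT1G23020, probe set 264751_at), a ferric reductase of mitochondria and of the vasculature that is induced by iron deficiency, was measured at 9.17 on the cadmium array and 9.15 on the control array, a difference of 0.02. OPT3 (AT4G16370, probe set 245296_at), a transporter of the phloem needed for the signal of shoot iron status to reach the root, was measured at 9.89 on the cadmium array and 9.85 on the control array, a difference of 0.05. For both genes the sign depended on the scaling. Scaled to actin, GAPDH and ubiquitin the differences were -0.08 for FRO3 and -0.05 for OPT3, and scaled to the hybridization controls they were 0.24 and 0.26. Differences at least as far as that of FRO3 were measured for 92.0% of plant probe sets, and as far as that of OPT3 for 80.8%.

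BHLH039 (AT3G56980, probe set 251677_at) encodes a group Ib bHLH factor that pairs with FIT to activate IRT1 and the ferric reductase gene FRO2. Its value was 8.58 on the cadmium array and 7.88 on the control array. The difference was 0.69 on the log2 scale, or 1.61-fold higher with cadmium, and 2.75% of plant probe sets differed at least as far in either direction. Within 0.5 log2 units of its mean level, 5.49% of 2786 probe sets differed as far in either direction. It was at least 1.5-fold higher under each of the 5 other scalings or transformations, with differences from 0.59 to 0.91. The related gene BHLH101 (AT5G04150), another group Ib factor, lay on the other side of 0, at 7.68 on the cadmium array and 7.99 on the control array, a difference of -0.31.

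A difference in scale between arrays cancels when genes are set against each other. The difference of BHLH039 exceeded that of IRT1, a gene it is known to activate, by 1.41 on the log2 scale, which is a 2.66-fold change in their ratio. This excess was smallest with 32 added to each linear value, at 1.27. BHLH039 exceeded NAS1 by 1.60, FER1 by 1.14 and BHLH101 by 0.996. The contrast between NAS1 and IRT1, both lower, was -0.19. As deposited, BHLH039 had the highest difference of the 8 genes and NAS1, IRT1 and FER1 the lowest, so wide gaps between them follow from that order. With 1 array per group none of these contrasts has an error. They describe the measured values, and neither separate the genes of a pair nor show which of them changed.

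**Figure D2:**
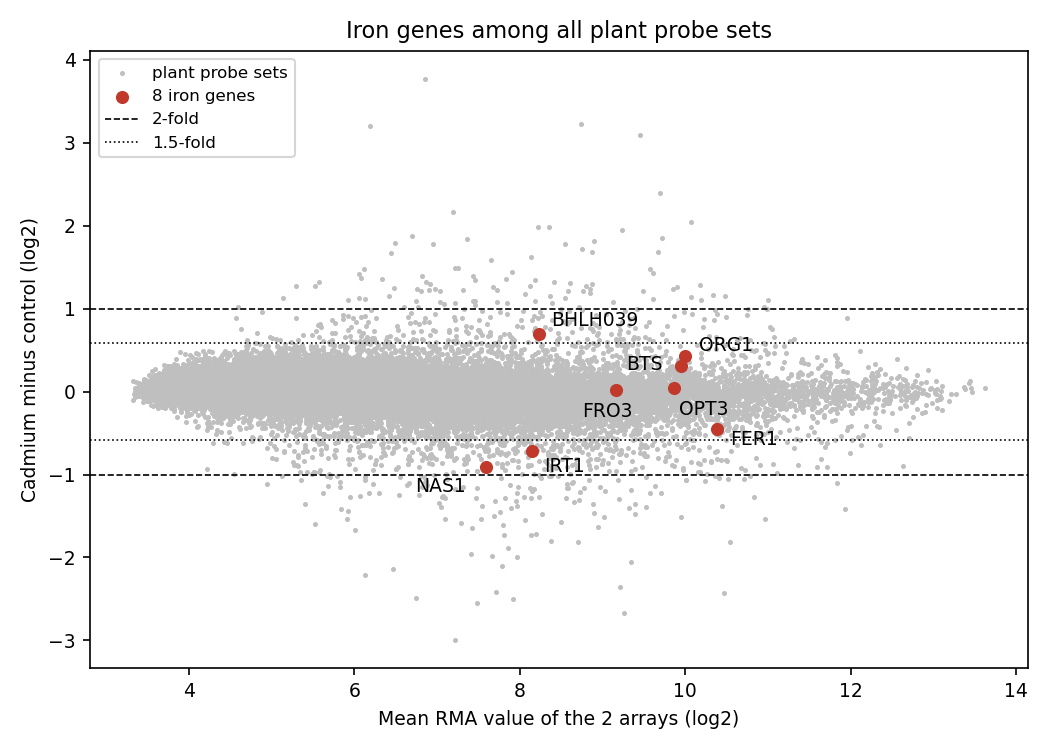
Difference between the cadmium and the control array (log2, vertical axis) against the mean RMA value of both arrays (log2, horizontal axis) for all 22746 plant probe sets (grey) and the 8 iron genes (red). BHLH039 lies above the dotted 1.5-fold line, IRT1 and NAS1 lie below the lower one, and no iron gene crosses the dashed 2-fold lines.

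BTS and ORG1 were both modestly higher with cadmium. BTS (AT3G18290, probe set 257062_at), the ubiquitin ligase that restrains the iron deficiency response and is itself induced by iron deficiency, was measured at 10.10 on the cadmium array and 9.79 on the control array. The difference was 0.31, or 1.24-fold, and 15.4% of plant probe sets differed at least as far, as did 21.1% of those within 0.5 log2 units of its mean level. ORG1 (AT5G53450, probe set 248270_at) was named for its response to the Dof factor OBP3. It was measured at 10.21 on the cadmium array and 9.78 on the control array, a difference of 0.43 or 1.35-fold, and 7.59% of plant probe sets differed at least as far, as did 12.9% of those of similar level. Scaled to the hybridization controls, ORG1 was at 0.65 and passed the 1.5-fold limit, while BTS was at 0.53 and did not. Both stayed above 0 under the 5 other scalings or transformations, with the lowest values at 0.21 for BTS and 0.33 for ORG1.

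FER1 (AT5G01600, probe set 251109_at) encodes ferritin 1, the plastid protein shell that stores iron and whose transcript is known to accumulate when iron is in excess. Its value was 10.17 on the cadmium array and 10.61 on the control array. The difference was -0.45 on the log2 scale, or 1.36-fold lower, and 7.18% of plant probe sets differed at least as far. Within 0.5 log2 units of its mean level, where only 868 probe sets lay, the share was 12.3%. The difference ran from -0.55 scaled to actin, GAPDH and ubiquitin to -0.23 scaled to the hybridization controls, the smallest size of the 3 lower genes under that scaling. The difference of BTS exceeded that of FER1 by 0.76 on the log2 scale.

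Ordered from lowest to highest difference as deposited, the genes ran NAS1, IRT1, FER1, FRO3, OPT3, BTS, ORG1 and BHLH039. Without replicates, no genes in this order can be separated, neighbours or not.

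Further genes of the pathway were taken from 5 lists covering uptake at the root surface, its regulators, the PYE and BTS branch, iron distribution and iron storage. Of the 57 genes listed, 8 are those above, 12 others had a probe set paired with that gene alone in the annotation used, and 37 were not paired there and are not analysed here, among them FRO2, FIT, BHLH038 and the other ferritin genes. The 12 genes were read by 13 probe sets, of which 7 were higher and 6 lower, with a median difference of 0.06. At least 1.5-fold differences were measured for 0 of the 13, against 3.95% of all plant probe sets. The range was from -0.54 to 0.40.

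In the PYE and BTS branch, the measured genes did not share a direction. PYE (AT3G47640), a bHLH repressor of iron distribution genes in the root pericycle, was at 7.15 on the cadmium array and 6.92 on the control array, a difference of 0.23. The group IVc bHLH factors act upstream of the group Ib genes. Of these, bHLH34 (AT3G23210) had a difference of 0.40, bHLH115 (AT1G51070) of 0.06, ILR3 (AT5G54680) of -0.09 and bHLH104 (AT4G14410) of -0.32. bHLH121 (AT3G19860), which works with the group IVc factors, was at 6.17 on the cadmium array and 6.72 on the control array. That was -0.54, or 1.46-fold lower, the largest difference of the 12 genes as deposited. Scaled to actin, GAPDH and ubiquitin it was -0.64 and passed the 1.5-fold limit, while scaled to the hybridization controls it was -0.32 and bHLH34, at 0.62, was the larger and passed the limit. The signs of the smallest differences depended on the scaling, with ILR3 at 0.13 scaled to the hybridization controls and bHLH115 at -0.04 scaled to actin, GAPDH and ubiquitin. AT1G74770 was read by a pair of probe sets. The better measured had a difference of 0.21. The other lay near the bottom of the scale at percentile 8.63 on the cadmium array and 4.59 on the control array, and its difference of 0.27 was 0.09 with 32 added to each linear value. AT1G18910 had a difference of -0.26.

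At the root surface, F6'H1 (AT3G13610), which makes the coumarins that roots release to mobilise iron, was at 10.02 on the cadmium array and 9.74 on the control array, a difference of 0.28. BGLU42 (AT5G36890), a beta-glucosidase that frees coumarins from their sugar, had a difference of 0.21, and AT3G12900 had a difference of -0.23. These differences were all smaller in size than that of IRT1.

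Of the 3 root markers measured, 2 were at least 1.5-fold lower as deposited, against 2.49% of all plant probe sets. The other, PYK10, was higher. EXPA7 (AT1G12560) and EXPA18 (AT1G62980), cell wall expansins of root hairs, belong to the epidermis, the layer in which IRT1 acts. EXPA7 was at 6.08 on the cadmium array and 6.74 on the control array, a difference of -0.67, and EXPA18 was at 5.62 on the cadmium array and 6.27 on the control array, a difference of -0.66. Neither reached 1.5-fold when scaled to the hybridization controls, at -0.45 for EXPA7 and -0.44 for EXPA18, or with 32 added to each linear value, at -0.48 and -0.43. The difference of IRT1 minus that of EXPA7 was -0.05 on the log2 scale, or 0.04 after subtraction of a lowess curve and -0.16 with 32 added. Against EXPA18 these values were -0.06, 0.06 and -0.22. The difference of NAS1 minus that of EXPA7 was -0.25. PYK10, made in root tissue more widely, was 0.28 higher. The summed linear signal of the 3 root markers was 5885 on the cadmium array and 4946 on the control array, nearly all of it from PYK10. For the 2 shoot markers, RCA and PRK, an enzyme of carbon fixation, the sum was 10881 on the cadmium array and 10864 on the control array. The other 8 root markers and 8 shoot markers are not analysed here. The part of root hair cells in the values of IRT1 and NAS1 was not tested.

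**Figure D3:**
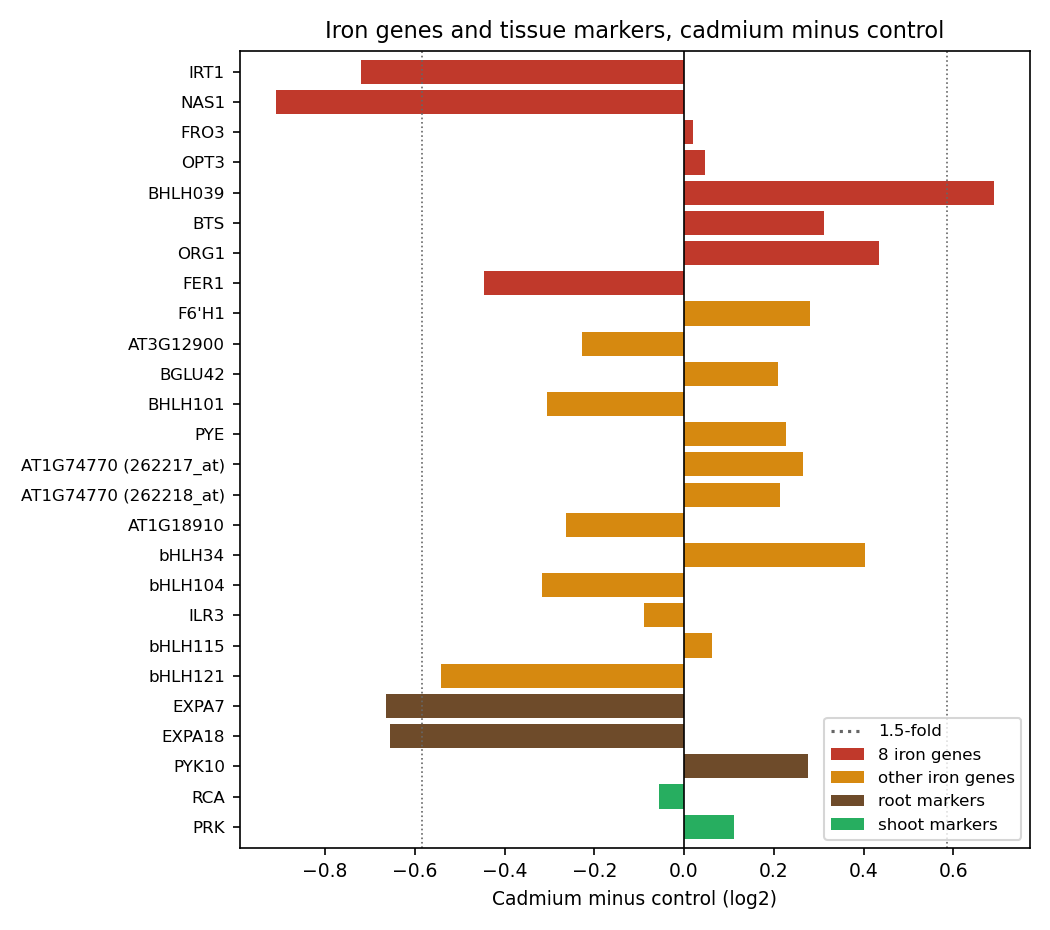
Difference between the cadmium and the control array (log2, horizontal axis) for the 8 iron genes (red), the probe sets of 12 other iron genes (orange), 3 root markers (brown) and 2 shoot markers (green), 1 array per group. As deposited, the bars of IRT1, NAS1, BHLH039, EXPA7 and EXPA18 pass the dotted 1.5-fold lines, and those of the other iron genes do not.

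**Figure D4:**
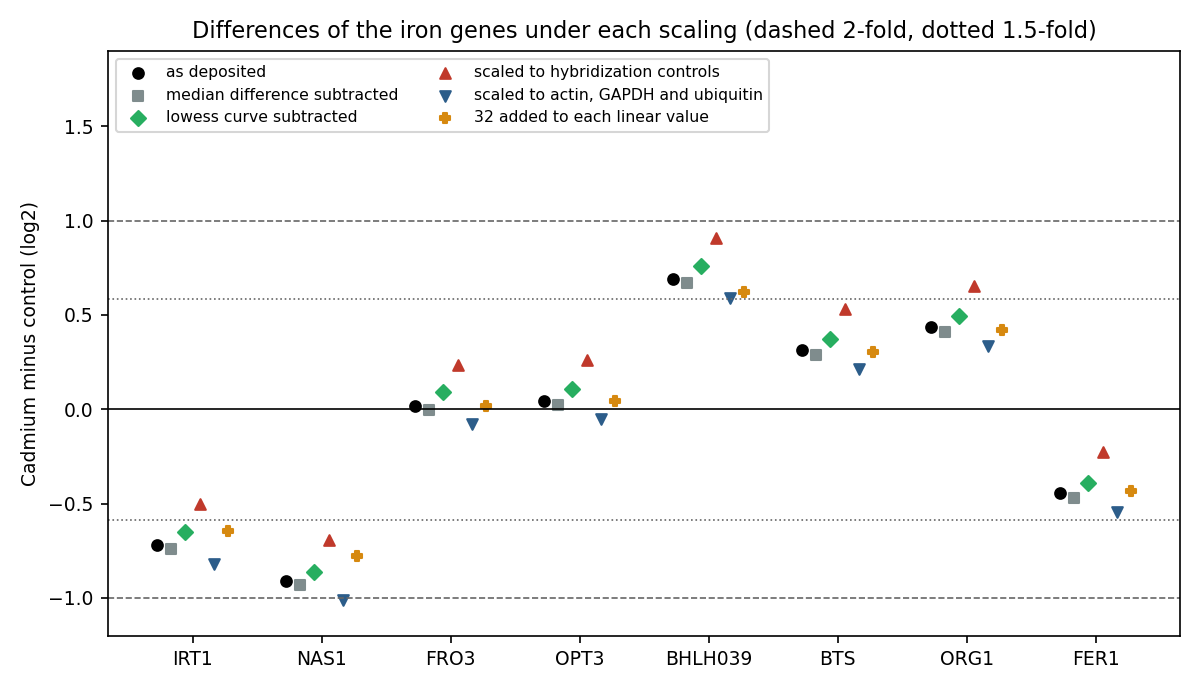
Difference between the cadmium and the control array (log2, vertical axis) for each of the 8 iron genes as deposited (black) and under 5 other scalings or transformations. IRT1, NAS1 and FER1 stay below 0 and BHLH039, BTS and ORG1 above 0 throughout, FRO3 and OPT3 cross 0, and NAS1 passes the 2-fold line (dashed) with scaling to actin, GAPDH and ubiquitin.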

How the data were processed

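Total RNA from 1 cadmium and 1 control sample was labelled with biotin and hybridized to ATH1 arrays, 1 array each. The deposited values are on a log2 scale and were made with RMA and the R package affy, per the submitters' processing notes. The version, the options and whether the arrays were normalized together: not given in the sources used here. Quantile normalization, if applied, would hide a shift of most transcripts in one direction. No value is a count, and precision is limited by the number of arrays.

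The difference was computed as the cadmium minus the control log2 value, with limits of 2-fold and 1.5-fold and no filter. With 1 array per group no test was run. The 8 genes were named by the definition of the set. All 8 loci carry these symbols in RefSeq, but the platform annotation lists 0 of these 8 probe sets, so the pairing was not checked against it. That table lists 14016 probe sets, 13513 with 1 gene and 503 with several, and names the other genes through RefSeq (TAIR10.1) identifiers. It does not list 8730 plant probe sets. No coordinates or sequences are given, as the files name no build. The members and lists were chosen with earlier results of these data known. Named genes were the 8, every listed gene at least 1.5-fold different, and a short set of close relatives at any value. The further listed genes given by value were chosen after their values were seen, to account for each paired gene.

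Alternatives were median centring, a lowess curve (fraction 0.3), scaling to the hybridization controls or to actin, GAPDH and ubiquitin, 32 added to each linear value, limits of 1.5-fold and 3-fold, the upper part by level, and omission of _s_at and _x_at probe sets. The counting code was run on simulated data, with a pass required under the settings other than 32 added to each linear value. The simulated noise was smaller than the spread of differences in these data. The run thus checks the code and not the counts reported here. Python 3.11.15, numpy 2.4.6, pandas 2.3.3, statsmodels 0.14.6 and matplotlib 3.10.9 were used.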

Additional observations from a re-analysis of the deposited data

How the results depend on the processing

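The direction of IRT1, NAS1, FER1, BHLH039, BTS and ORG1 was kept under the 5 other scalings or transformations. The small difference of FRO3, 0.02 as deposited, turned to -0.0036 after median centring and to -0.081 scaled to actin, GAPDH and ubiquitin, and that of OPT3, 0.05 as deposited, turned to -0.054 under that second scaling, because each shift exceeded the difference. Under that scaling NAS1 passed the 2-fold limit at -1.01, so 1 of the 8 genes was at least 2-fold lower, against 0 as deposited. Of the 22746 plant probe sets, 197 were at least 2-fold lower under that scaling and 142 (0.624%) as deposited. At the 1.5-fold limit, as deposited, 1 gene was higher and 2 were lower, against 1.46% and 2.49% of plant probe sets. At 3-fold 0 of the 8 were called, against 23 higher and 28 lower of the 22746. The 3 genes past 1.5-fold as deposited were IRT1, NAS1 and BHLH039, and with the hybridization controls they were NAS1, BHLH039 and ORG1. The share of all plant probe sets past 1.5-fold was computed only as deposited, so the second group of genes has no background share beside it. In the background, 96 plant probe sets passed 2-fold on the higher side and 142 on the lower, so 40.3% were higher. Scaled to the hybridization controls the counts were 181 and 80 (69.3% higher), and scaled to actin, GAPDH and ubiquitin 78 and 197 (28.4% higher). With 32 added they were 63 and 91, at 1.5-fold 332 and 566, and at 3-fold 23 and 28. No paired analysis was possible because each group holds 1 array, which also kept arrays from being left out. No difference here can be separated from the variation between samples or hybridizations.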

Other observations

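Genes of other metals were listed beside the iron genes, because IRT1 also carries zinc and nicotianamine also chelates zinc and copper. Of 24 genes in 3 lists, 4 had a probe set paired with that gene alone, and 20 are not analysed here. At least 1.5-fold differences were measured for 0 of the 4, against 3.95% of all plant probe sets. ZIP9 (AT4G33020), a zinc transporter gene induced by zinc deficiency, was at 5.52 on the cadmium array and 5.17 on the control array, a difference of 0.36. bZIP19 (AT4G35040), a transcription factor that activates such zinc transporter genes, had a difference of 0.0046. CCS (AT1G12520), the copper chaperone of superoxide dismutase, was at 9.18 on the cadmium array and 9.38 on the control array, a difference of -0.20, which turned to 0.013 scaled to the hybridization controls. AT3G58060 was at 5.61 on both arrays.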
